A study of Homo sapiens with 12 samples.

Results

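Small nucleolar RNA (snoRNA) host genes are transcribed as long RNAs whose introns carry snoRNAs. The members described here are the 31 entries of 43735 in the deposited count table whose symbol is SNHG followed by a number, or GAS5, ZFAS1 or EPB41L4A-AS1. The 12 cultures whose RNA was sequenced fell into 4 groups of 3 and belonged to MM1S and MM1R, which are established lines of multiple myeloma, a cancer of plasma cells. MM1S is glucocorticoid (GC)-sensitive and MM1R is GC-resistant, and both come from 1 patient's myeloma. Each line was left untreated (UT) or exposed to 1 µM withaferin A (WA), a plant steroidal lactone that binds cysteines of proteins covalently, for 3 h. All groups were grown in the same serum-supplemented RPMI-1640 medium, and the labels name no vehicle for the UT cultures. Cultures of a group differ in passage number, which was 16, 22 and 23 in MM1S and 4, 6 and 7 in MM1R. The lines share no passage number, so that line and passage cannot be told apart, and each line stands for 1 cell model only.

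A snoRNA of the box C/D class guides methylation of ribosomal RNA and a snoRNA of the H/ACA class guides pseudouridylation. Both are released from the introns of a host transcript after splicing and are held by protein particles in the nucleolus. The spliced remainder of a noncoding host is exported, engaged by ribosomes over short reading frames and, for many hosts, degraded by nonsense-mediated decay (NMD). Many host genes start, like ribosomal protein genes, with a C followed by a run of pyrimidines (the 5′ terminal oligopyrimidine, or TOP, motif), through which growth signals act on translation.

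The sequences at the start of SNHG3 and SNHG12 are shown because these were the members that fell with WA in both lines whether or not passage was used as a replicate block. They are RefSeq promoters on GRCh38.p14, from 250 bases before to 50 after the annotated start, on the strand of the gene. SNHG3 lies at chr1:28505693-28505992 (plus strand) and SNHG12 at chr1:28581824-28582123 (minus strand). Capitals mark a start of C with at least 4 further pyrimidines, or the NRF1 motif (GCGCA, any base, then GCGC, on either strand).
SNHG3: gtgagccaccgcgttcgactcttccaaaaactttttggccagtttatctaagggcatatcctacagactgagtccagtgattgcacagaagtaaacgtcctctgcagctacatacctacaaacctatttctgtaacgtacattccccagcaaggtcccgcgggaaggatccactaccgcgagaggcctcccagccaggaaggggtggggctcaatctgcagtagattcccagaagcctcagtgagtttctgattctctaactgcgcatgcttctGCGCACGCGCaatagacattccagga
SNHG12: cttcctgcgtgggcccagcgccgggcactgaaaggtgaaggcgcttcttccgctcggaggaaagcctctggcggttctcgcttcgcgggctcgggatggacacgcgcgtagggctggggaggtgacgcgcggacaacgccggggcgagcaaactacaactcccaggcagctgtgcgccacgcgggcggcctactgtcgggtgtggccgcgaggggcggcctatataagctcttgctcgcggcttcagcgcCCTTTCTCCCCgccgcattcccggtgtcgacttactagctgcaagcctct

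The first 50 bases from the RefSeq start of 3 members that differed between the lines are given for comparison, on the same build, with the pyrimidine run in capitals. The starts used in these cells were not tested. They are ZFAS1 (chr20:49278642-49278691, plus strand), SNHG19 (chr16:2155309-2155358, minus strand) and GAS5 (chr1:173868996-173869045, minus strand).
ZFAS1: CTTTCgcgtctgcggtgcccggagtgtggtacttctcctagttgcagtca
SNHG19: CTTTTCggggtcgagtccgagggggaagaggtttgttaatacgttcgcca
GAS5: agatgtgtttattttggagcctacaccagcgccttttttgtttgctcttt

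Of the 31 members, 27 matched the RefSeq table. A start of C and at least 4 pyrimidines was found in 7 of them, namely SNHG12, SNHG18, SNHG19, SNHG32, SNHG4, SNHG5 and ZFAS1, and in 4.07% of all 35116 promoters. The NRF1 motif was found in SNHG1, SNHG14, SNHG29 and SNHG3, against 5.78% of all promoters. The E-box CACGTG was found in SNHG7 and SNHG30, against 7.26%. A heat shock element of 3 alternating units (GAA and TTC in turn with 2 bases between units, both strands) was found in GAS5 alone, against 0.49%. These matches describe the letters of the annotated start and say nothing about binding, and SNHG3, SNHG12 and SNHG16, which fell with WA without a passage block, shared none of them.

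Total counts per culture lay between 17625110 and 19368343, and the members together took 0.0753% to 0.123% of them. The defining plasma cell markers were present in every culture, with SDC1 at 565 to 931 CPM (counts scaled to a common library total) and XBP1 at 1020 to 1659 CPM, whereas the mature B-cell markers MS4A1 and PAX5 had at most 3 reads. Of the T-cell and monocyte markers, CD3D, LYZ and CD14 had at most 7 reads and CD3E was at 3.26 to 11.6 CPM. HBB was at 3.36 to 9.50 CPM, COL1A1 at 0.447 to 17.9 CPM and EPCAM at 0.267 to 1.09 CPM. Levels are CPM after TMM scaling and are therefore shares of the RNA, so that fewer cells of a kind and less RNA per cell cannot be told apart. CPM is not corrected for transcript length, and members are compared with themselves across groups rather than with each other. Of the members, 25 had enough reads to be tested among 14085 genes. The other 6 were SNHG31 with 61 reads over all 12 cultures, SNHG22 with 18, SNHG25 with 7, SNHG28 with 5, SNHG32 with 4 and SNHG27 with 1. Reads of SNHG32 are uncertain, because the table holds 4 further copies of its entry. The most read-rich members were SNHG1, SNHG29, SNHG5, SNHG16, SNHG3 and SNHG8, and SNHG1 alone held 17.1% of the reads of all members.

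To ask how host transcripts responded to WA, cultures with WA were compared with UT cultures of the same line. In MM1R, 3 of the 25 tested members (SNHG3, SNHG12 and SNHG16) fell and 0 rose at an adjusted p under 0.05 (quasi-likelihood test of edgeR, Benjamini-Hochberg adjusted over all genes, 3 cultures per group). Among all tested genes 6.46% fell and 7.55% rose in that line. In MM1S, 2 members (SNHG3 and SNHG12) fell and 0 rose by the same test, against 4.23% and 6.25% of all genes. The median log2 fold change of the tested members was -0.02 in MM1R, with 11 above and 14 below 0, and -0.24 in MM1S, with 6 above and 19 below 0. The median of all genes was 0.01 in both lines. Without UT passage 16 the median in MM1S was -0.14. Without the MM1S culture of passage 16 with WA, 5 members were called in MM1R, SNHG10 and SNHG17 being added. The comparisons of WA and those between lines below use the same libraries and are not independent of each other.

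SNHG3, a host of the H/ACA snoRNAs SNORA73A and SNORA73B, is a lncRNA gene on chromosome 1 (28832492 to 28837404, plus strand, GRCh37). Its level in UT MM1S cultures of passages 16, 22 and 23 was 66.3, 66.4 and 77.9 CPM, and with WA it was 36.7, 42.8 and 32.2 CPM. In MM1R cultures of passages 4, 6 and 7 it was 85.4, 83.6 and 102 CPM untreated and 50.2, 49.0 and 34.5 CPM with WA. The treated and untreated cultures did not overlap in either line, and the deepest fall within a passage was at passage 7 of MM1R and passage 23 of MM1S. The fitted change was a 2.03-fold fall in MM1R (log2 fold change -1.02, SE 0.16, edgeR adjusted p = 0.00087 by the quasi-likelihood test) and a 1.89-fold fall in MM1S (log2 fold change -0.91, SE 0.16, edgeR adjusted p = 0.0021).

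SNHG12, which hosts SNORD99 and H/ACA snoRNAs of the SNORA16, SNORA44 and SNORA61 families, lies on the same chromosome (28905050 to 28909644, minus strand, GRCh37). UT MM1S cultures held 32.8, 41.3 and 40.5 CPM and those with WA held 16.7, 21.7 and 15.3 CPM. UT MM1R cultures held 41.2, 30.6 and 32.2 CPM and those with WA held 22.8, 16.4 and 11.3 CPM. Each of the 6 treated cultures lay below each untreated culture. SNHG12 fell 2.05-fold in MM1R (log2 fold change -1.04, SE 0.22, edgeR adjusted p = 0.0070) and 2.13-fold in MM1S (log2 fold change -1.09, SE 0.22, edgeR adjusted p = 0.0063). SNHG3 and SNHG12 kept both falls under each of the 21 alternative settings tried.

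SNHG16, the third member that fell in MM1R, hosts box C/D snoRNAs of the SNORD1 family (chromosome 17, 74553809 to 74667067, plus strand, GRCh37). UT MM1R cultures held 97.5, 109 and 156 CPM and those with WA held 70.3, 77.8 and 74.3 CPM, without overlap. In MM1S it held 76.0, 80.4 and 100 CPM untreated and 43.9, 73.3 and 69.8 CPM with WA. The highest UT value, at passage 7 of MM1R, stood well above the other 2 of its group. The fall in MM1R was 1.63-fold (log2 fold change -0.70, SE 0.20, edgeR adjusted p = 0.030), and in MM1S, where the groups did not overlap either, the log2 fold change was -0.46 (SE 0.20, edgeR adjusted p = 0.17). The call in MM1R was lost without UT passage 7 (log2 fold change -0.48, edgeR adjusted p = 0.14), UT passage 6 (edgeR adjusted p = 0.060) or WA passages 4, 6 or 7 (edgeR adjusted p = 0.099, 0.071 and 0.096).

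**Figure D1:**
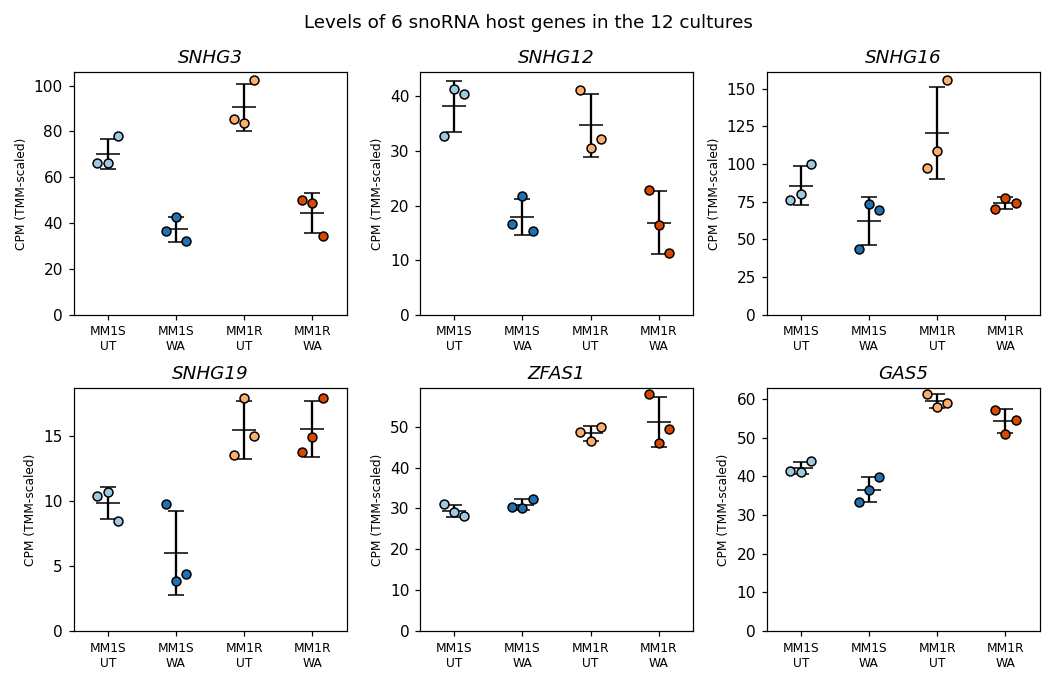
TMM-scaled CPM (vertical axes, from 0) of 6 members in each of the 12 cultures, with points for cultures and bars for the mean and SD of the 3 cultures of each group (UT, untreated). SNHG3 and SNHG12 lie lower with WA in both lines, whereas ZFAS1 and GAS5 lie higher in MM1R than in MM1S whether or not WA was given.

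The untreated and the WA culture of a passage deviated together, so that WA was also tested within passages. With passage as replicate block, 8 members were called in MM1R, 1 higher and 7 lower, where 14.7% of all genes were called higher and 14.4% lower. They were SNHG3, SNHG12, SNHG16, SNHG17, SNHG10, SNHG15 and SNHG4, which fell, and SNHG7, which rose. In MM1S 8 members fell under the block, against 11.7% of all genes, namely SNHG3, SNHG12, SNHG16, SNHG10, SNHG15, SNHG19, SNHG20 and SNHG1. SNHG7, host of SNORA17A and SNORA17B, was at 36.8, 40.4 and 46.6 CPM in UT MM1R and at 49.0, 49.7 and 73.4 CPM with WA, without overlap. Its log2 fold change under the block was 0.46 in MM1R (SE 0.13, edgeR adjusted p = 0.023). In MM1S it was 0.39 under the block (SE 0.14, edgeR adjusted p = 0.056), just short of a call. The members called under the block in both lines beside SNHG3 and SNHG12 were SNHG10 (log2 fold change -0.69 and -0.64 in MM1R and MM1S under the block), SNHG15 (-0.41 and -0.42) and SNHG16 (-0.67 and -0.48).

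**Figure D2:**
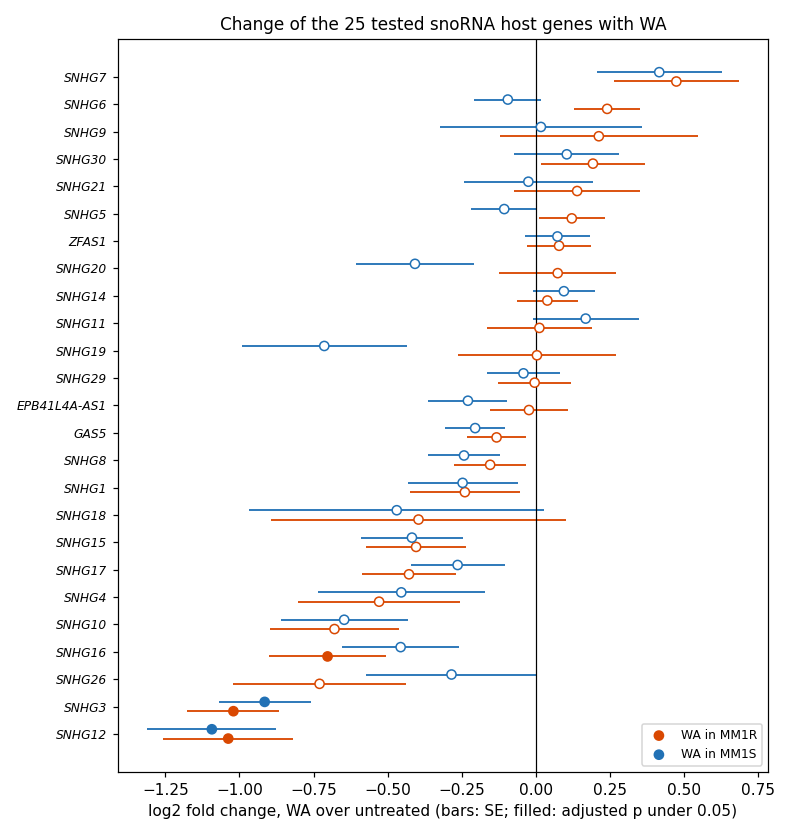
Log2 fold change of WA over untreated cells (horizontal axis) for the 25 tested members in MM1R (orange) and MM1S (blue), with bars for the SE and filled points for an edgeR adjusted p under 0.05. SNHG3 and SNHG12 are at the low end in both lines, and all other members lie between -0.73 and 0.47.

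Of the 6 members with most reads, SNHG1, SNHG29, SNHG5 and SNHG8 did not pass the test for WA without a passage block in either line. Neither did GAS5, ZFAS1 and EPB41L4A-AS1. With the block SNHG1 was called lower in MM1S (log2 fold change -0.27, edgeR adjusted p = 0.049). SNHG1, which hosts 8 snoRNAs, was at 167, 182 and 193 CPM in UT MM1S and 123, 146 and 188 CPM with WA, and at 157, 180 and 221 CPM in UT MM1R and 130, 140 and 203 CPM with WA. At each passage the WA culture was the lower one, and the treated and untreated groups overlapped in both lines. SNHG29 was at 106, 107 and 113 CPM in UT MM1S and at 113, 89.6 and 114 CPM with WA. SNHG5, host of SNORD50A and SNORD50B, was at 98.5, 105 and 89.2 CPM in UT MM1S and at 101, 79.6 and 92.0 CPM with WA, and at 107, 120 and 115 CPM in UT MM1R and 116, 127 and 130 CPM with WA. SNHG29 and SNHG5 overlapped between treated and untreated cultures in both lines. SNHG8, host of SNORA24, was at 48.8, 51.5 and 45.2 CPM in UT MM1S and at 46.4, 34.5 and 42.1 CPM with WA, and at 54.9, 58.9 and 66.0 CPM in UT MM1R and 53.4, 50.7 and 57.4 CPM with WA. For these 4 members the log2 fold change in either line lay between -0.25 and 0.12. GAS5, a growth-arrest transcript known to be stabilised when translation and NMD are blocked, had a log2 fold change of -0.13 in MM1R (SE 0.10, edgeR adjusted p = 0.43) and -0.20 in MM1S (SE 0.10, edgeR adjusted p = 0.23). The treated cultures of GAS5 lay below the untreated ones without overlap in both lines, although the test was not passed. ZFAS1 had log2 fold changes of 0.08 and 0.07 and EPB41L4A-AS1 of -0.02 and -0.23 in MM1R and MM1S. The remaining tested members had log2 fold changes from -0.73 (SNHG26) to 0.47 (SNHG7) in MM1R and from -0.71 (SNHG19) to 0.42 (SNHG7) in MM1S. Without the MM1S culture of passage 16 with WA, SNHG19 was called lower with WA in MM1S (log2 fold change -1.25, edgeR adjusted p = 0.0019).

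A difference between the lines in the response to WA was tested as an interaction. The interaction test of edgeR called 0 members and 0.00% of all genes at an adjusted p under 0.05, and 0 members and 97 genes had an unadjusted p under 0.05. DESeq2 called 0 members and 1 gene. In this fit, without a passage block, SNHG6 came nearest, with a WA effect higher in MM1R by a log2 difference of 0.34 (SE 0.16, unadjusted p = 0.054 by edgeR's quasi-likelihood test). SNHG19 followed with 0.72 (SE 0.39, unadjusted p = 0.084 by the same edgeR test). With passage as replicate block edgeR again called 0 members, and 3 had an unadjusted p under 0.05, namely SNHG20 (log2 difference 0.50, edgeR unadjusted p = 0.0095), SNHG19 (0.79, edgeR unadjusted p = 0.017) and SNHG6 (0.34, edgeR unadjusted p = 0.030). The levels of SNHG19 in MM1R were 13.6, 17.9 and 15 CPM untreated and 13.8, 14.9 and 17.9 CPM with WA, whereas in MM1S its 3 WA cultures were at 9.75, 3.84 and 4.42 CPM against 10.4, 10.7 and 8.45 CPM untreated.

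Whether host transcripts differ between the GC-resistant and the GC-sensitive line was asked first in UT cells. At an adjusted p under 0.01 and a log2 fold change of at least 1 in size, 0 members were higher and 0 lower in MM1R (edgeR's quasi-likelihood test), against 1.48% and 1.49% of all genes. At an adjusted p under 0.05 with no limit on the fold, 6 members were higher in MM1R and 0 lower, against 6.44% and 5.50% of all genes. These were ZFAS1, GAS5, SNHG29, SNHG6, SNHG14 and EPB41L4A-AS1. Of the 25 tested members 23 had a log2 fold change above 0, with a median of 0.35, whereas 50.7% of all genes were above 0 and their median was 0.01. With libraries scaled by total counts, 21 of the 25 were above 0.

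ZFAS1, which hosts SNORD12 family snoRNAs, had the smallest p of the members. It was at 31, 29.2 and 28.0 CPM in UT MM1S and at 48.8, 46.4 and 50.0 CPM in UT MM1R. The groups were far apart relative to their spread, and ZFAS1 was 1.65-fold higher in MM1R (log2 fold change 0.72, SE 0.11, edgeR adjusted p = 0.00084). With WA it was at 30.3, 30.1 and 32.4 CPM in MM1S and at 57.9, 45.9 and 49.5 CPM in MM1R, a log2 fold change of 0.72 (SE 0.11, edgeR adjusted p = 0.00077). The difference in UT cells kept an edgeR adjusted p of at most 0.0068 under 19 alternative settings.

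GAS5, which hosts 11 snoRNAs, all box C/D except SNORA103, was at 41.2, 41.0 and 43.9 CPM in UT MM1S and at 61.4, 57.9 and 58.9 CPM in UT MM1R. It was 1.41-fold higher in MM1R (log2 fold change 0.50, SE 0.10, edgeR adjusted p = 0.0055). With WA the cultures were at 33.3, 36.5 and 39.7 CPM in MM1S and at 57.1, 50.9 and 54.6 CPM in MM1R, again without overlap. SNHG29 was at 139, 159 and 174 CPM in UT MM1R and at 139, 166 and 165 CPM with WA, and it was 1.45-fold higher in UT MM1R than in UT MM1S (log2 fold change 0.54, SE 0.12, edgeR adjusted p = 0.013). EPB41L4A-AS1, host of SNORA13, was at 15.4, 12.9 and 14 CPM in UT MM1S and at 21.3, 18.6 and 18.1 CPM in UT MM1R, and with WA at 13.1, 10.4 and 12.6 CPM in MM1S and 19.95, 18.6 and 18.6 CPM in MM1R. Its difference was the least secure of the 6 (log2 fold change 0.46, SE 0.13, edgeR adjusted p = 0.038) and was lost in 10 of 19 alternatives. SNHG6 was at 27.6, 26.3 and 23.8 CPM in UT MM1S and at 36.3, 34.8 and 34 CPM in UT MM1R. SNHG14, a long imprinted host of many snoRNAs, was at 35.2, 33.7 and 33.2 CPM in UT MM1S and at 48.1, 44.7 and 41.6 CPM in UT MM1R. SNHG6 (log2 fold change 0.44, edgeR adjusted p = 0.023) lost the call in 6, SNHG14 (0.40, edgeR adjusted p = 0.024) in 5 and SNHG29 in 3 of 19 alternatives. UT libraries of MM1S passages 22 and 23 and of MM1R passages 4, 6 and 7 were among those whose removal ended 1 or more of these calls, with edgeR adjusted p from 0.053 to 0.16.

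**Figure D3:**
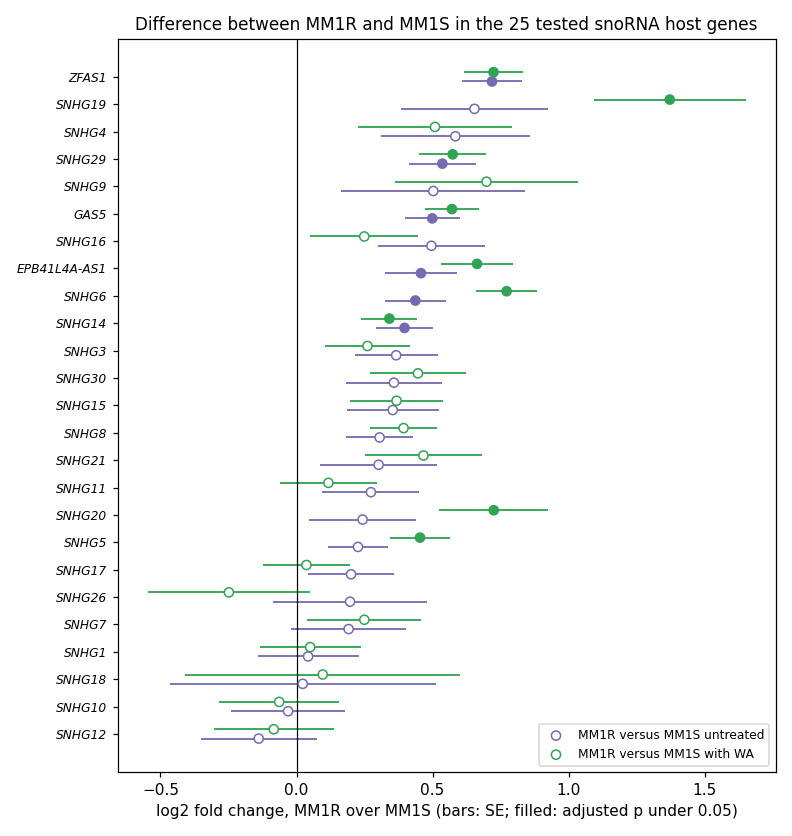
Log2 fold change of MM1R over MM1S (horizontal axis) for the 25 tested members in untreated cells (purple) and with WA (green), with bars for the SE and filled points for an edgeR adjusted p under 0.05. Of the 25 members, 23 lie above 0 in untreated cells and 22 with WA.

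Among cells with WA, 1 member, SNHG19, was higher in MM1R by both limits and 0 were lower (edgeR's quasi-likelihood test), against 1.63% and 1.41% of all genes. At an adjusted p under 0.05 alone, 9 members were higher and 0 lower, against 6.34% and 5.66%. The 9 were SNHG6, ZFAS1, GAS5, EPB41L4A-AS1, SNHG19, SNHG29, SNHG5, SNHG20 and SNHG14. SNHG19, host of SNORD60 (chromosome 16, 2204793 to 2205406, minus strand, GRCh37), was at 13.8, 14.9 and 17.9 CPM in MM1R with WA and at 9.75, 3.84 and 4.42 CPM in MM1S with WA. The groups did not overlap, and the MM1S culture of passage 16 stood apart from the other 2. SNHG19 was 2.59-fold higher in MM1R (log2 fold change 1.37, SE 0.28, edgeR adjusted p = 0.0060), and in UT cells the log2 fold change was 0.65 (SE 0.27, edgeR adjusted p = 0.14). Its log2 fold change with WA was 1.91 without MM1S passage 16 with WA, when 2 members passed both limits. It missed the stricter p limit, leaving 0 members, without MM1S passages 22 or 23 or MM1R passages 4, 6 or 7 with WA, although over 19 alternatives its edgeR or DESeq2 adjusted p was at most 0.031. SNHG6, host of SNORD87, was at 27.6, 22.1 and 23.0 CPM in MM1S with WA and at 40.0, 41.0 and 43.3 CPM in MM1R with WA (log2 fold change 0.77, SE 0.11, edgeR adjusted p = 0.00066). SNHG20 was at 11.3, 7.69 and 8.95 CPM in MM1S with WA and at 17.9, 12.9 and 15.4 CPM in MM1R with WA (log2 fold change 0.72, SE 0.20, edgeR adjusted p = 0.031). SNHG14 lost its call with WA in 12 of 19 alternatives, SNHG20 in 6 and SNHG5 in 2.

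Reads were also counted on the snoRNAs themselves. SNORA73B and SNORD104 are shown because their entries were lower with WA in both lines. For SNORD104 this is a description only, because it passed the filter on low counts through its untreated cultures. SNORA73B lies in SNHG3 (chr1:28835071-28835274, plus strand) and SNORD104 in SNHG25 (chr17:62223443-62223512, plus strand), both given from GRCh37. Capitals mark the ACA box before the 3′ end of the H/ACA snoRNA, and the C-box core TGATG and the D box CTGA of the box C/D snoRNA.
SNORA73B: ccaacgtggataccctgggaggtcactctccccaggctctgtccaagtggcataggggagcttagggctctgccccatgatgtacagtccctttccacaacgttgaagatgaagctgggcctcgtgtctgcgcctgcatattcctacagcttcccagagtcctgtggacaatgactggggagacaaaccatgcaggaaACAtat
SNORD104: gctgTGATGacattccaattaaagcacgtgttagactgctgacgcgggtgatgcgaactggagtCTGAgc

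Of 146 snoRNA entries inside members, 76 had a read and 18 had enough reads to be tested. Among the 76, without a filter on low counts, 46 had a log2 fold change below 0 and 24 above 0 with WA in MM1R (median -0.58), and 52 were below and 17 above 0 in MM1S (median -0.85). Some of the 18 passed the filter through the untreated cultures. Among them were SNORD44 with 14 to 16 reads in UT MM1R and 3 to 7 with WA, and SNORD104 with 26 to 30 and 6 to 17. The filter thereby favours falls, so that the direction, the median and the number called of the 18 are a description only. They lay below 0 in both lines, with medians of -1.06 in MM1R and -0.93 in MM1S, and the 6 with at least 10 reads in every library had medians of -0.92 and -0.87. In MM1R 7 of the 18 fell and in MM1S 3 fell at an adjusted p under 0.05 (edgeR's quasi-likelihood test), and 0 rose. Of all genes 6.46% and 4.23% fell, but these shares are no measure for entries that the filter chose in this way. Of the 6 with at least 10 reads in every library, 3 were called in each line, all lower. In that fit 1883 and 1455 of 11805 genes were called in either direction in MM1R and MM1S. The 59 tested snoRNA entries outside members had medians of -0.41 and -0.49, with 1 lower and 2 higher in each line. The counts rested on single libraries. In MM1R 2 were called without WA passage 6, 3 without UT passages 6 or 7 or WA passage 7, and 4 without UT passage 4, whereas in MM1S 0 were called without UT passage 23 and 1 without UT passage 22, WA passages 16 or 23, or UT passage 6 of MM1R. With passage as replicate block 8 and 10 were called by edgeR in MM1R and MM1S, and 6 and 3 by DESeq2. The members' snoRNA entries were sparse, with at most 187 reads summed over a host in any culture.

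SNORA73B had 43 to 69 reads per culture in UT MM1S and 17 to 32 with WA, and 48 to 49 in UT MM1R and 8 to 22 with WA. It fell by 1.66 on the log2 scale in MM1R (SE 0.35, edgeR adjusted p = 0.0071) and by 1.13 in MM1S (SE 0.33, edgeR adjusted p = 0.045). SNORA73A, the related H/ACA snoRNA of the same host with which reads may be shared, fell by 1.39 in MM1R (SE 0.28, edgeR adjusted p = 0.0048) and by 1.21 in MM1S (SE 0.27, edgeR adjusted p = 0.011) on the log2 scale. SNORD104 had 21, 21 and 30 reads in UT MM1S and 9, 8 and 7 with WA, and 26, 30 and 28 reads in UT MM1R and 6, 6 and 17 with WA. Its log2 fold change was -1.46 in MM1R (SE 0.41) and -1.49 in MM1S (SE 0.42). SNORD104 passed the filter through its untreated cultures, so these values are a description only and no call is made from them. The host entry SNHG25 held at most 2 reads in any culture, so that almost all reads at this locus were assigned to the snoRNA.

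To ask whether snoRNA entries moved more than their hosts, snoRNA reads per 100 host reads were compared in the 7 hosts with a mean of at least 10 snoRNA reads per culture and a tested host entry. This comparison was chosen after the data were seen. In GAS5, UT MM1S cultures had 15.1, 18.3 and 21.2 snoRNA reads per 100 host reads and those with WA 9.93, 14.2 and 9.48. UT MM1R cultures had 10.8, 13.4 and 11.3 and those with WA 9.43, 6.52 and 5.35. The ratio was lower with WA in 6 of 6 passages, with a mean log2 difference of -0.74 (exact two-sided permutation test of treatment within line, p = 0.005 unadjusted for the 7 hosts tested, the smallest that its 400 arrangements can give). These arrangements do not keep the passages paired. With signs changed within passages the p of GAS5 was 0.031 (exact sign-change test, unadjusted). That is the smallest p that 6 passages can give for any host. SNHG17 (log2 difference -0.52, exact permutation p = 0.015) and SNHG3 (-0.39, exact permutation p = 0.01) were also lower in 6 of 6 passages. SNHG1 (-0.72, exact permutation p = 0.03) and SNHG15 (-0.44, exact permutation p = 0.05) were lower in 5 of 6, and no call is made from these unadjusted values. The exact permutation p of SNHG1 was 0.05 to 0.065 without passage 23 of MM1S (UT or WA) or UT passages 4 or 6 of MM1R. SNHG12 went the other way without passing the test (0.18, exact permutation p = 0.09, or 0.03 without WA passage 4 of MM1R), and SNHG14 gave 0.11 (exact permutation p = 0.765). Summed snoRNA reads of SNHG12 had log2 fold changes of -0.97 in MM1R and -0.87 in MM1S, beside -1.04 and -1.09 for the host, and those of GAS5 had -0.85 and -0.91, beside -0.13 and -0.20.

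**Figure D4:**
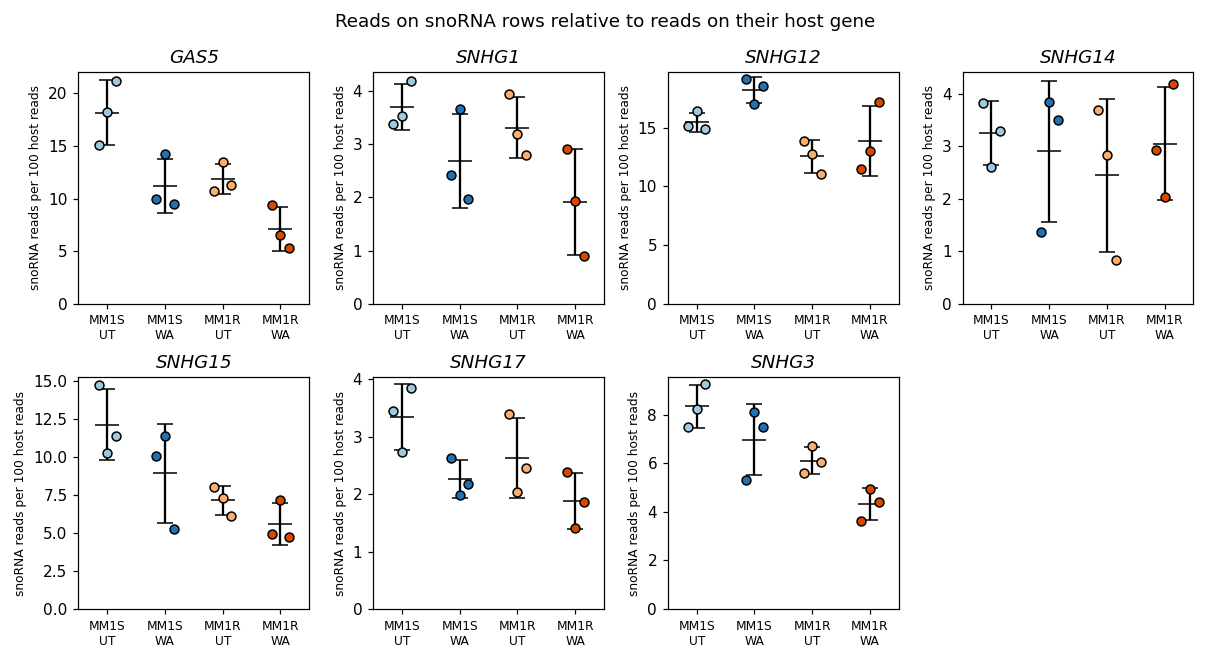
Reads on all snoRNA entries of a host per 100 reads on the host entry (vertical axes, from 0) in each of the 12 cultures for 7 hosts, with bars for the mean and SD of the 3 cultures of each group. The ratio of GAS5 lies lower with WA in both lines, whereas that of SNHG12 does not.

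Reads in a snoRNA entry can come from the mature snoRNA or from the unspliced host intron, and the count table cannot tell these apart. The setting for strand in the counting is not given in the sources used here, and members overlap other genes. SNHG3 overlaps RCC1 on the same strand, which had log2 fold changes of -0.45 (edgeR adjusted p = 0.18) and -0.38 (edgeR adjusted p = 0.30) with WA in MM1R and MM1S. SNHG12 overlaps TRNAU1AP on the opposite strand, which had log2 fold changes of 0.31 and 0.27, opposite in sign to SNHG12. ZFAS1 overlaps ZNFX1, and GAS5 overlaps ZBTB37 and GAS5-AS1 among others, these 3 on the opposite strand, with log2 fold changes between UT lines of -0.24, -0.24 and 0.51, none of which passed the test. ZBTB37 rose with WA (0.64 in MM1R and 0.68 in MM1S, edgeR adjusted p = 0.016 and 0.014). SNHG29 overlaps LRRC75A on the opposite strand, which was higher in UT MM1R (log2 fold change 1.44, edgeR adjusted p = 0.015), at mean levels of 1.40 CPM there and 0.511 CPM in UT MM1S. SNHG7 overlaps DIPK1B on the opposite strand, which rose with WA from a mean of 1.81 to 6.52 CPM in MM1R (log2 fold change 1.85, edgeR adjusted p = 0.0026) and from 3.09 to 8.70 CPM in MM1S (1.49, edgeR adjusted p = 0.0084). SNHG14 shares its strand with SNRPN, PWAR5 and PWAR6, none of which was called. SNHG20 overlaps SEC14L1 on the same strand, which fell by 0.65 on the log2 scale with WA in MM1S (edgeR adjusted p = 0.016). The part of these neighbours in the members' values was not tested.

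Other genes of the pathway give the setting of these values, and their lists were not tested as sets. Among all tested genes 6.46% fell and 7.55% rose with WA in MM1R, and 4.23% fell and 6.25% rose in MM1S. Between UT lines 6.44% of all genes were higher in MM1R at an adjusted p under 0.05 (edgeR). Of 23 tested ribosomal protein genes that host snoRNAs, all 23 were above 0 in UT MM1R relative to UT MM1S, with a median log2 fold change of 0.31 and 2 higher at an adjusted p under 0.05 (edgeR). With WA 0 of the 23 were called in either line, with medians of -0.02 in MM1R and -0.04 in MM1S. Of 19 other protein-coding hosts, 2 rose and 6 fell in MM1R and 2 rose and 0 fell in MM1S with WA, with medians of -0.23 and -0.25. The 2 that rose in both lines were HSPA8, a constitutive heat shock protein that hosts box C/D snoRNAs (log2 fold change 1.75 and 1.78, edgeR adjusted p = 1.8e-05 and 1.4e-05 in MM1R and MM1S), and TCP1, a chaperonin subunit (0.61 and 0.59). GNL3, a nucleolar GTPase and host, fell in MM1R (log2 fold change -0.83, edgeR adjusted p = 0.0098). DANCR, a noncoding snoRNA host outside the rule, was higher in UT MM1R than in UT MM1S by a log2 fold change of 0.44 (edgeR adjusted p = 0.038) and had -0.28 and -0.25 with WA.

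NOP56 and DKC1 stand in both the list of hosts and the next one. The counts of the next 3 lists stand beside 6.46% of all genes that fell with WA in MM1R and 4.23% in MM1S. The shares that rose were 7.55% and 6.25%. Of 15 tested snoRNP proteins and assembly factors, 4 fell and 0 rose with WA in MM1R and 0 were called in MM1S, with medians of -0.26 and -0.16. NOP56, a core protein of box C/D particles, fell in MM1R by 0.81 on the log2 scale (edgeR adjusted p = 0.020), and DKC1, the pseudouridine synthase of H/ACA particles, by 0.63 (edgeR adjusted p = 0.038). Of 20 NMD factors, 2 fell in MM1R and 0 in MM1S, namely EIF4A3 (log2 fold change -0.61, edgeR adjusted p = 0.033) and RNPS1 (-0.48, edgeR adjusted p = 0.031), both of exon junction complexes. Of 8 transcripts known to rise when NMD is lowered, 3 rose in MM1R and 1 in MM1S, among them the stress factors DDIT3 (log2 fold change 3.06, edgeR adjusted p = 0.013) and ATF3 (2.10, edgeR adjusted p = 0.022) in MM1R and GADD45A (1.06, edgeR adjusted p = 0.0037) in MM1S. Without a passage block 0 of the 25 tested members rose with WA in either line, against 7.55% and 6.25% of all genes. With passage as a block SNHG7 was called higher in MM1R, where 14.7% of all genes rose. It was also called higher there without a filter on low counts. Whether NMD changed was not tested.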

How the data were processed

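The authors mapped paired-end reads to hg19 with STAR 2.7.3a after FastQC 0.11.5 (submitters' processing notes) and deposited raw counts per gene without normalization. A further deposited table of DESeq2-normalized values was not used. The gene annotation and the strand setting are not given in the sources used here. Counts come from reads without molecular identifiers.

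Counts were analysed in R 4.3.3 with edgeR 4.0.16 (filterByExpr, minimum count 10, over the 4 groups, 14085 genes kept, TMM scaling, quasi-likelihood tests from 1 model that held the 12 libraries together, Benjamini-Hochberg adjustment over all tested genes). DESeq2 1.42.0, other scalings and filters, fits of 6 libraries, stricter limits and each library left out were alternatives. Gene coordinates are those of GENCODE on GRCh37, and snoRNAs were assigned to hosts by RefSeq. The study's methods call the 3 samples of a group biologically independent. Both tools were tested on simulated counts. Values in every culture are given for members called by the main fit without a passage block, with both limits where lines were compared. They are also given for GAS5, ZFAS1, EPB41L4A-AS1 and the 6 members with most reads. From each background list at most 3 genes with the smallest p are named. Members and lists were chosen with earlier results of these data known. 1 gene that overlaps a member is not reported here.

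Untreated and WA cultures of a line carry the same passage numbers in the labels. Their deviations from the group mean correlated within passages at 0.43, 0.22 and 0.25 (passages 4, 6 and 7 of MM1R) and 0.74, 0.26 and 0.49 (passages 16, 22 and 23 of MM1S). Passages 22 and 23 also correlated with each other (0.35 and 0.42). The main fit held no term for passage, and passage was used as a replicate block in alternative fits only.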

Additional observations from a re-analysis of the deposited data

How the results depend on the processing

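The falls of SNHG3 and SNHG12 with WA in both lines, and the higher ZFAS1 and GAS5 in MM1R, kept their direction and their side of an adjusted p of 0.05 in each alternative run. Without a filter on low counts, 5 of 31 members were called with WA in MM1R and 4 in MM1S (2344 and 1895 of all 26497 genes), and the median between UT lines was 0.29 (also 0.29 with total counts). With passage as replicate block, 8 of 25 members were called in each line by edgeR (29.1% and 24.1% of all genes in MM1R and MM1S) and 7 in each by DESeq2 (3399 and 2930 of 14085 genes). Leaving out 1 library gave 2 to 5 members in MM1R and medians from -0.27 to -0.14 in MM1S and from 0.28 to 0.38 between UT lines. With no limit on the fold change, 6 members passed between UT lines and 9 between lines with WA. Between lines with WA, 0 members passed both limits in a fit of the 6 libraries compared, and 0 to 2 with 1 library left out. The block changed no other member's call than those given above, and for the difference between lines in the effect of WA it gave 0 members. Causes of these shifts were not tested. No alternative reversed the direction of a called result, whereas the member median in MM1R (up to 0.02) and the snoRNA ratio of SNHG14 (-0.21 to 0.35), neither of them called, took either sign. At this depth the 6 members with at most 61 reads over the 12 cultures did not pass the filter on low counts.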
